A study of Mus musculus with 2 samples.

Results

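Insulin-like growth factor (IGF) signaling runs from a ligand through a receptor tyrosine kinase to adaptor proteins, and secreted binding proteins hold the ligand outside the cell. The genes described here are Igf1 (the ligand), Igf1r (the receptor), Irs1 and Irs2 (the adaptors), and Igfbp2 to Igfbp7 (the binding proteins). They were chosen by name, with earlier results of these data known. They are 10 of the 22711 genes listed in both libraries, and all 10 were found. The libraries came from immortal mouse embryonic fibroblasts, hybrids of the strains C57BL/6N (B6) and PWK/PhJ (PWK). In the PWK-Xi line (labelled strain C57BL/6N X PWK/PhJ) the inactive X chromosome is the PWK copy. In the B6-Xi line (labelled PWK/PhJ X C57BL/6N) it is the B6 copy. Both lines grew on 0.1% gelatin in medium with 10% newborn calf serum, and neither carries a labelled treatment. Each line has 1 library, so the strain of the inactive X, the line and the library cannot be told apart, and no test between lines was possible. The values describe these 2 libraries only. The sources used here do not say whether a line is 1 clone.

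As background, IGF-1 binds the IGF-1 receptor, whose kinase phosphorylates the IRS adaptors. These recruit phosphoinositide 3-kinase, which activates Akt and, through the Tsc complex, mTOR. Binding proteins lengthen the life of the ligand in serum and compete with the receptor for it in tissue, and proteases such as PAPP-A release it. Fibroblasts are known to secrete several binding proteins, and serum in the medium is itself a source of IGFs. Only RNA was measured here.

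Expression was deposited as FPKM, fragments divided by the length of the transcript and by the size of the library, with 1 value for each allele. The total is the sum of both alleles, and the B6 share is the B6 value as a percentage of the total. Of the listed genes, 12907 were above 0 in PWK-Xi and 10127 in B6-Xi. Read depth was unknown, so no counting interval could be given. A value of 0 can be a failed estimate, since Vim, a gene that fibroblasts use heavily, was listed at 0 in both lines. A 0 in B6-Xi was found for 4.76% of the genes that reached 5 FPKM in PWK-Xi. Of 16 fibroblast markers, 15 were above 0 in PWK-Xi and 13 in B6-Xi, with summed levels of 3242 and 13456 FPKM, most of it S100a4 (2321 and 13006 FPKM). Epithelial, endothelial, immune, skeletal muscle and neural markers summed to at most 5.36 FPKM per list in either line. The pluripotency genes Pou5f1, Nanog and Sox2 were above 0 in PWK-Xi and at 0 in B6-Xi, and Zfp42 was at 0 in both; the 4 markers summed to 17.6 FPKM in PWK-Xi and 0 FPKM in B6-Xi, most of it Pou5f1 (15.1 FPKM). Of 4 adipocyte markers, Fabp4 (54.9 FPKM in PWK-Xi and 108.3 FPKM in B6-Xi) and Pparg were above 0 and Adipoq and Plin1 were at 0. The 3 liver markers were at 0 in both lines. The part of these markers in the differences below was not tested.

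The 5 binding protein genes that reached 5 FPKM in a line were Igfbp2, Igfbp3, Igfbp5, Igfbp6 and Igfbp7. For 4 of them, chosen for the levels given next, the 250 bases before the gene's start are shown. Igfbp2 and Igfbp5 are neighbours with no listed gene between them. Igfbp2 had 52.8 FPKM in PWK-Xi and was listed at 0 in B6-Xi. Igfbp5 was much higher in PWK-Xi, Igfbp6 was much lower there, and Igfbp7 was the most abundant. The sequences are RefSeq's for GRCm38.p6, a build of B6 and a later one than the mm9 of the submitters' processing notes, and PWK sequence was not used here. Each runs 5′ to 3′ on the gene's strand, and for Igfbp2 the more upstream of its annotated starts was taken. Capitals mark matches on either strand to a TATA box core (TATAAA), a box read as CCAAT, a GC box core (GGGCGG) or a FoxO site core (TGTTTAC); no match overlapped another motif.
Igfbp2, chr1:72824230-72824479, + strand: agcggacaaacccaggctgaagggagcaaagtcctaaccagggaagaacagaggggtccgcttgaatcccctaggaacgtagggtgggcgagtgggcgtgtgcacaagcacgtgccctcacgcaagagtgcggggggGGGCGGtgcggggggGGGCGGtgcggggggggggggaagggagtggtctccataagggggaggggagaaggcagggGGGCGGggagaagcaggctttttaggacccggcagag
Igfbp5, chr1:72874866-72875115, - strand: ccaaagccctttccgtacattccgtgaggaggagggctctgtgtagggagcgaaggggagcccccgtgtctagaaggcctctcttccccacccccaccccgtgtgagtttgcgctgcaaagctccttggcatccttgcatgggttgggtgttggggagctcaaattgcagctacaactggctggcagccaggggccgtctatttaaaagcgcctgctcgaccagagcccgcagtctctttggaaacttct
Igfbp6, chr15:102143936-102144185, + strand: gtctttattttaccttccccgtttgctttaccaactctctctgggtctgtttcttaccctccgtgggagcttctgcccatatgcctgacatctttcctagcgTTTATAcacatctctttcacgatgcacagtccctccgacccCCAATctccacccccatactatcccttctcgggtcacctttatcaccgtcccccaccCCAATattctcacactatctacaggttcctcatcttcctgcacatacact
Igfbp7, chr5:77408046-77408295, - strand: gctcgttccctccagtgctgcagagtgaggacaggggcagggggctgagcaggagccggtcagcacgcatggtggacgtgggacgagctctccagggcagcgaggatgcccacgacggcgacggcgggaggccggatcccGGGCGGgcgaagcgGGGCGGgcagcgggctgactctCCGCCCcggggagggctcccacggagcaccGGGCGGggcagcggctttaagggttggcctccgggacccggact
GGGCGG occurred 3 times before Igfbp2 and 4 times before Igfbp7, and 32.7% of all 32851 promoters in the table held it. Igfbp6 had 1 match to TATAAA and 2 to CCAAT, which 12.4% and 33.8% of promoters held. Igfbp5 had no match to any of these motifs, and TGTTTAC, found in 3.17% of promoters, was absent from all 4 windows. CpG pairs numbered 14 before Igfbp2, 10 before Igfbp5, 7 before Igfbp6 and 26 before Igfbp7, against a median of 6 over all promoters. Such matches describe the letters of these windows only.

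Of the 10 genes, only binding protein genes reached 5 FPKM in a line, so only they could be called past 2-fold. The levels of some of them differed between the lines. Igfbp2 was abundant in PWK-Xi and listed at 0 in B6-Xi, Igfbp5 was higher in PWK-Xi, and Igfbp6 was lower there. Igfbp7 and Igfbp3 were close between the lines. Igf1, Igf1r, Irs1, Irs2 and Igfbp4 stayed below 5 FPKM in both lines. At these low levels the plain ratios of PWK-Xi over B6-Xi were 2.25 for Igf1, 1.86 for Igf1r, 1.17 for Irs1 and 2.66 for Irs2.

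**Figure D1:**
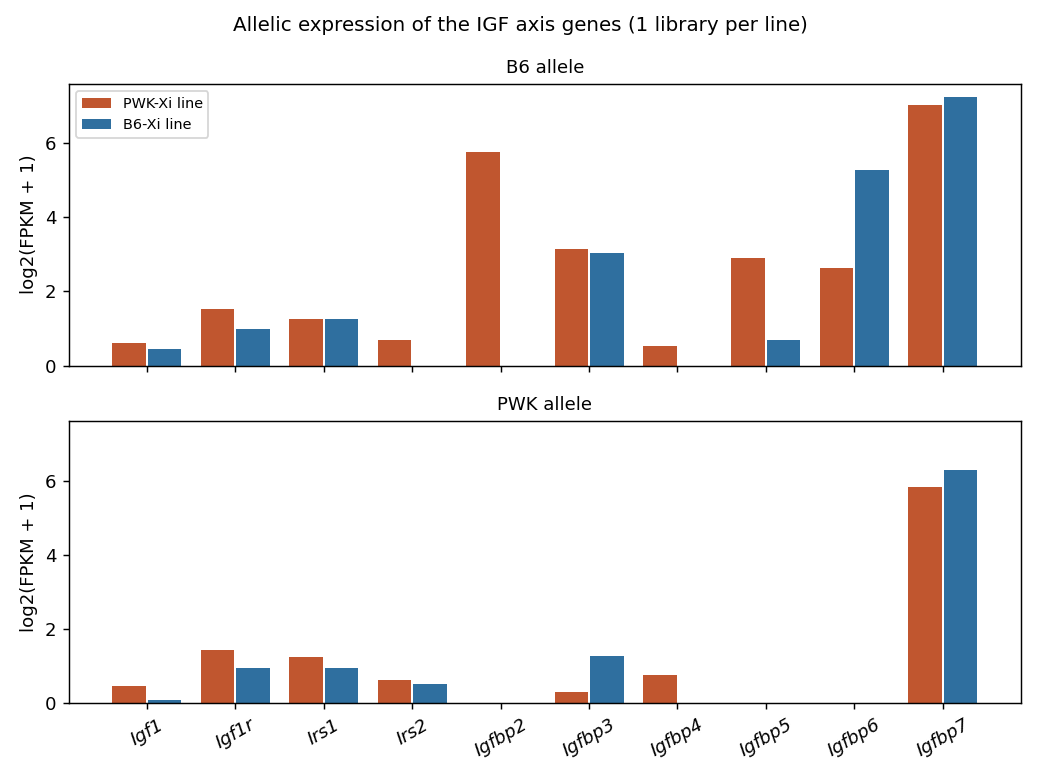
Expression of the 10 genes in each library as log2(FPKM + 1), with the B6 allele above and the PWK allele below; each bar is 1 library, PWK-Xi left and B6-Xi right. On the PWK allele the tallest bars by far are those of Igfbp7, at 56.0 FPKM in PWK-Xi and 77.0 FPKM in B6-Xi. On the B6 allele the genes with the tallest bars are Igfbp2, Igfbp3, Igfbp5, Igfbp6 and Igfbp7. Igf1r and Irs1 have low bars on both alleles.

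The binding proteins are taken first. Igfbp7, which encodes a secreted protein with low affinity for IGFs, had 186.4 FPKM in PWK-Xi and 227.1 FPKM in B6-Xi. It lay above 98.3% of the genes detected in each line. The lines were compared by log2((PWK-Xi + 1)/(B6-Xi + 1)) of the totals, taken relative to the median of 0.19 over the 5241 genes that were above 0 in both lines and had at least 5 FPKM in either. The pseudocount of 1 FPKM makes the change of low genes look smaller on this scale. Igfbp7 had a difference of -0.48, under 2-fold. Igfbp3, whose product forms the main IGF complex of serum together with the acid-labile subunit, had 7.999 FPKM in PWK-Xi and 8.57 FPKM in B6-Xi, a difference of -0.28. The acid-labile subunit gene Igfals was itself listed at 0 in both lines.

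Igfbp2, which encodes a binding protein with an integrin-binding motif, had 52.8 FPKM in PWK-Xi and was listed at 0 in B6-Xi on both alleles. In PWK-Xi it lay above 94.4% of the genes detected. Because of the 0, no fold is given. Igfbp5, the gene beside it on chromosome 1, encodes a binding protein that also attaches to matrix. Its level was 6.46 FPKM in PWK-Xi and 0.618 FPKM in B6-Xi, a ratio of 10.5 and a difference of 2.01 on the relative log2 scale. Igfbp6, on chromosome 15, encodes the binding protein that prefers IGF-2 over IGF-1. It moved the other way, with 5.23 FPKM in PWK-Xi and 37.9 FPKM in B6-Xi, 7.24-fold lower in PWK-Xi and a difference of -2.84. Igfbp4, which encodes a binding protein that mainly holds IGF back from its receptor, had 1.13 FPKM in PWK-Xi and was listed at 0 in B6-Xi. Igfbp1, chiefly a liver gene, was listed at 0 in both lines.

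Among the 4 members that could be compared, Igfbp5 was at least 2-fold higher in PWK-Xi and Igfbp6 at least 2-fold lower. The background was 10.1% of all genes compared for higher and 8.93% for lower. At 4-fold the same members passed, against 2.21% and 1.56% of all genes. With no centring 70.3% of all 2-fold calls were higher in PWK-Xi, and with both libraries scaled to the same sum 79.98% were, against 53.0% with centring; the direction of Igfbp5 and Igfbp6 was the same under each. The median difference of the 4 members was -0.38 on the relative scale, where that of all compared genes is 0 by construction.

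Since FPKM are scaled per length, the binding protein transcripts can be added within a library. Their sum was similar in the lines, at 260.0 FPKM in PWK-Xi and 274.1 FPKM in B6-Xi, or 0.102% and 0.0961% of all FPKM. The makeup of the sum was not. Igfbp7 made 71.7% of it in PWK-Xi and 82.8% in B6-Xi. Igfbp2 made 20.3% in PWK-Xi and was at 0 in B6-Xi. For Igfbp6 the portion was 2.01% in PWK-Xi and 13.8% in B6-Xi, and for Igfbp5 it was 2.49% and 0.225%. Igfbp3 held close to the same portion, 3.08% and 3.13%. With Igfbp7 left out, Igfbp2 led PWK-Xi with 71.7% of the remaining 73.6 FPKM, and Igfbp6 led B6-Xi with 80.5% of the remaining 47.1 FPKM.

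**Figure D2:**
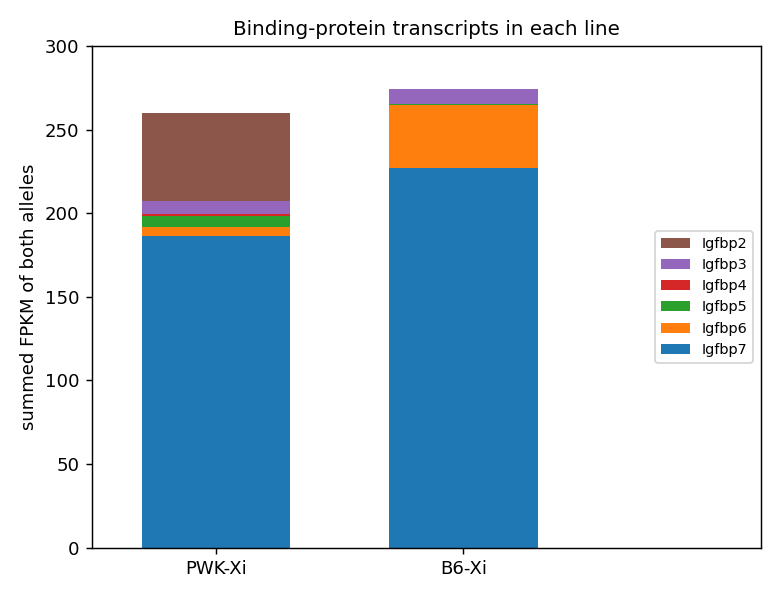
Summed FPKM of the binding protein genes in each library, PWK-Xi left and B6-Xi right, stacked by gene with Igfbp7 at the base. The bars reach 260.0 and 274.1 FPKM; the segment of Igfbp2 appears in PWK-Xi and that of Igfbp6 is larger in B6-Xi.

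The ligand, receptor and adaptors were all low. Igf1 had 0.923 FPKM in PWK-Xi and 0.41 FPKM in B6-Xi, above 28.9% and 9.32% of the detected genes. Igf1r had 3.59 FPKM in PWK-Xi and 1.93 FPKM in B6-Xi. Its alleles moved alike, the B6 allele by a ratio of 1.90 and the PWK allele by 1.82 (PWK-Xi over B6-Xi). Irs1, the adaptor gene on chromosome 1, had 2.73 FPKM in PWK-Xi and 2.33 FPKM in B6-Xi. Irs2, the adaptor with a large role in liver and beta cells, had 1.15 FPKM in PWK-Xi and 0.433 FPKM in B6-Xi. All 4 lay below the minimum of 5 FPKM, so they entered no count of genes past 2-fold. Their totals were higher in PWK-Xi, as were those of 67.6% of all genes above 0 in either line.

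The alleles were then compared within each line. The transcripts of Igfbp2 to Igfbp7 came mostly or wholly from the B6 allele in PWK-Xi, apart from the low Igfbp4. In B6-Xi this held for Igfbp3, Igfbp6, Igfbp7 and the low Igfbp5. Igfbp2 and Igfbp4 were listed at 0 on both alleles there, so they had no share. Igf1r, Irs1 and, in PWK-Xi, Irs2 came from both alleles. In PWK-Xi, 4 of the 5 members with at least 5 FPKM had a B6 share of at least 90%, which 2.4% of 4883 autosomal genes had under the same minimum. In B6-Xi it was 1 of 3 members, against 2.72% of 4233 autosomal genes. No member had a share of 10% or less at that minimum, against 1.17% of autosomal genes in PWK-Xi and 6.5% in B6-Xi. The median B6 share was 99.9% over the 5 members in PWK-Xi and 83.3% over the 3 in B6-Xi. Igfbp2 and Igfbp5 are in the first set only, so these 2 medians are over different genes. The median of all autosomal genes was 52.5% in PWK-Xi and 50.0% in B6-Xi.

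Igfbp2 came 100% from B6 in PWK-Xi, with 52.8 FPKM from B6 and the PWK allele at 0. Igfbp5 had 6.45 FPKM from B6 and 0.00893 FPKM from PWK in PWK-Xi, a B6 share of 99.9%, and in B6-Xi its 0.618 FPKM were all from B6. Igfbp6 was listed at 0 on the PWK allele in both lines, so as listed its 7.24-fold difference lay on the B6 allele alone. The limit on values of 0 given above holds for a 0 on 1 allele too. Among the 3 members with at least 5 FPKM in both lines, Igfbp6 was the 1 with at least 90% from B6 in both; 0.497% of the 3826 autosomal genes at that minimum were so. Igfbp3 had 7.76 FPKM from B6 and 0.235 FPKM from PWK in PWK-Xi, against 7.14 and 1.43 FPKM in B6-Xi. Its B6 allele was thus nearly level between the lines, at a ratio of 1.09, and its PWK allele was 6.07-fold lower in PWK-Xi as a plain ratio of these low values. On the relative log2 scale with the pseudocount the difference of the PWK allele was -1.05. The B6 share of Igfbp3 was 97.1% in PWK-Xi and 83.3% in B6-Xi.

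Igfbp7 was the exception, with a large contribution from both alleles. It had 130.4 FPKM from B6 and 56.0 FPKM from PWK in PWK-Xi, and 150.0 and 77.0 FPKM in B6-Xi. The B6 share was 69.9% in PWK-Xi and 66.1% in B6-Xi, so B6 was the higher allele in both. Without Igfbp7, the PWK alleles of the other 6 binding protein genes summed to 0.946 FPKM in PWK-Xi and 1.43 FPKM in B6-Xi, while their B6 alleles summed to 72.7 and 45.6 FPKM. Igfbp3, Igfbp6 and Igfbp7 reached 5 FPKM in both lines. A gap in B6 share of 20 points or more between the lines was found for 0 of these 3, and for 26.8% of autosomal genes.

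Igf1r had a B6 share of 52.7% in PWK-Xi and 51.6% in B6-Xi. Irs1 had 50.0% in PWK-Xi and 60.0% in B6-Xi. The share of Irs2 was 51.9% in PWK-Xi, and in B6-Xi its 0.433 FPKM were all from PWK. Igfbp4 had 37.9% in PWK-Xi, the one binding protein gene with the PWK allele ahead. The share of Igf1 was 58.0% in PWK-Xi and 85.7% in B6-Xi, at levels under 1 FPKM. Many shares matched a ratio of small whole numbers (denominators up to 10, tolerance 0.001 percentage points). Among genes with both alleles above 0, this held for 14.9% of 10462 genes in PWK-Xi and 41.8% of 7506 in B6-Xi. Of the members, it held for Irs1 in PWK-Xi and for Igf1, Igfbp3 and Irs1 in B6-Xi. Small differences of share are therefore not read as differences here.

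The hybrid lines have chromosomes on which most genes lean to 1 strain, so each share was set beside those of the 20 nearest genes with at least 1 FPKM, 10 on each side in annotation order. On chromosome 1 the neighbours of Igfbp2 had a median of 72.7% in PWK-Xi, and those of Igfbp5 the same, and the genes lay 27.3 and 27.1 points above it. Each is among the neighbours of the other. Irs1, further along the same chromosome, had a difference of -17.7 points from its neighbours' median of 67.7%. Of the expressed genes next to the pair, the ribosomal protein gene Rpl37a on the Igfbp2 side had 72.7% in PWK-Xi and 49.7% in B6-Xi. On the Igfbp5 side Tns1, a focal adhesion gene at 1.31 FPKM in PWK-Xi, also leaned strongly to B6 there, with 90.2% in PWK-Xi and 53.6% in B6-Xi. Arpc2, the next gene out, had 72.9% in PWK-Xi and 50.0% in B6-Xi.

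Igfbp3 on chromosome 11 stood 42.8 points above its neighbours in PWK-Xi and 34.6 points above them in B6-Xi. Their medians were 54.2% and 48.7%, with ranges of 0% to 100% in both lines. Its closest expressed neighbours Ccm2 and Tns3 had 49.4% and 35.7% in PWK-Xi, and 46.9% and 39.1% in B6-Xi. Upp1, further out on the side of Tns3, had 99.3% at 60.0 FPKM in PWK-Xi and 48.1% in B6-Xi. A share of at least 90% was found for 3 of the 20 neighbours of Igfbp3 in each line. Igfbp6 on chromosome 15 stood 45.9 points above the neighbours' median of 54.1% in PWK-Xi, where none exceeded 69.7%. In B6-Xi it stood 47.0 points above a median of 53.0%, and its neighbour Spryd3, at 1.45 FPKM, also had 100%.

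Chromosome 5 leaned to PWK in PWK-Xi, with a median B6 share of 36.4% over 631 genes. Igfbp7 lies on it and leaned the other way. Its share of 69.9% was 34.0 points above the median of its neighbours, 36.0%, and above all 20 of them, which ranged from 16.7% to 60.5%. In B6-Xi chromosome 5 had a median of 51.0%, and Igfbp7 lay 8.20 points above its neighbours. Igf1r lay within 5.00 points of its neighbours' median in PWK-Xi and 1.24 points in B6-Xi, and Irs2 within 2.13 points in PWK-Xi.

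**Figure D3:**
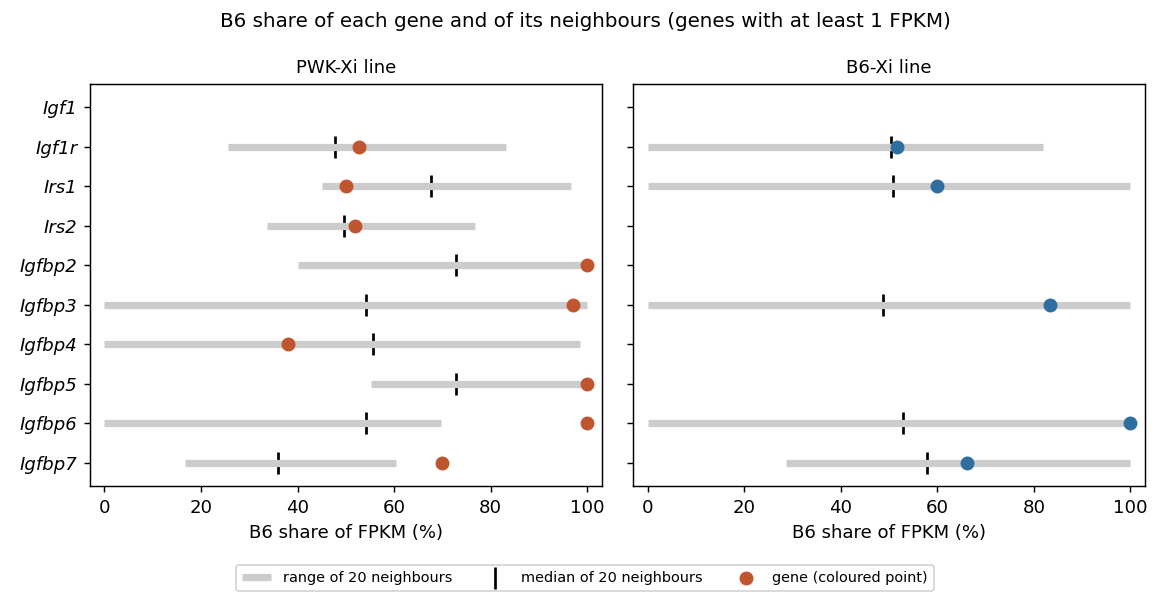
B6 share in percent of each gene with at least 1 FPKM (coloured point), with the median (black tick) and range (grey bar) of its 20 expressed neighbours, PWK-Xi left and B6-Xi right. In PWK-Xi Igfbp2, Igfbp6 and Igfbp7, at 100%, 100% and 69.9%, lie beyond the ranges of their neighbours, and Igf1r and Irs2 lie close to the medians. For Igfbp2 the highest neighbour is Igfbp5, at 99.9%, so it lies only just beyond. The highest neighbours of Igfbp6 and Igfbp7 have 69.7% and 60.5%.

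Other genes of the axis gave context. Igf2, the imprinted second ligand gene, had 2.98 FPKM in PWK-Xi, all from PWK, and was listed at 0 in B6-Xi. Igf2r, whose product clears IGF-2, and the receptor adaptor gene Grb10 are imprinted too. Both came 100% from B6 in both lines, at 4.94 and 10.2 FPKM in PWK-Xi and 2.39 and 6.24 FPKM in B6-Xi. The strain thus stayed the same although the labelled strain order differs between the lines, and parental origin was not tested. The insulin receptor gene Insr had 2.06 FPKM in PWK-Xi and 1.01 FPKM in B6-Xi. The 3 genes of RNA-binding proteins named for the Igf2 transcript had larger values in PWK-Xi, and 1 of them could be compared. Igf2bp2 had 20.5 FPKM in PWK-Xi and 6.22 FPKM in B6-Xi, a difference of 1.38. Igf2bp3 had 5.07 FPKM in PWK-Xi and was listed at 0 in B6-Xi, and Igf2bp1 had 2.36 and 0.886 FPKM.

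Downstream and modifying genes were read in 5 lists of 65 genes, of which 23 could be compared. Of these, 3 were at least 2-fold higher in PWK-Xi and 0 at least 2-fold lower, 13.0% and 0%, against 10.1% and 8.93% of all genes; their median difference was 0.29. In the list of proteases and their inhibitors, 1 of 4 was higher. Adam12, a metalloprotease gene whose product cleaves binding proteins, had 6.82 FPKM in PWK-Xi and 2.05 FPKM in B6-Xi, a difference of 1.16. Ctsd and Htra1, both protease genes, had 151.4 and 19.3 FPKM in PWK-Xi and 136.8 and 13.6 FPKM in B6-Xi. Pappa stayed at 0.309 FPKM in PWK-Xi and 0.0696 FPKM in B6-Xi.

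None of the 8 genes compared in the list of phosphoinositide 3-kinase and Akt passed 2-fold. Akt1, a kinase gene central to the pathway, had 16.8 FPKM in PWK-Xi and 18.8 FPKM in B6-Xi. Pdpk1, whose product activates Akt, had 5.02 FPKM in PWK-Xi and was listed at 0 in B6-Xi, so it was not compared. In the list of Tsc and mTOR, 1 of 8 was higher. Ddit4, an mTOR inhibitor gene induced by stress, had 10.2 FPKM in PWK-Xi and 0.645 FPKM in B6-Xi, a difference of 2.57. The most abundant members, Rps6 (377.7 and 266.8 FPKM) and Eif4ebp1 (87.4 and 73.4 FPKM in PWK-Xi and B6-Xi), differed by 0.31 and 0.06. Among FoxO genes and targets 1 of 2 was higher, the transcriptional repressor gene Bcl6, with 12.5 FPKM in PWK-Xi and 0.847 FPKM in B6-Xi, a difference of 2.68. Ccng2 had 7.30 and 4.43 FPKM, a difference of 0.42. In the growth hormone list only Ghr, the receptor gene, could be compared; it had 5.09 FPKM in PWK-Xi and 3.49 FPKM in B6-Xi, a difference of 0.25. Jak2, its kinase, had 3.41 and 3.07 FPKM.

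**Figure D4:**
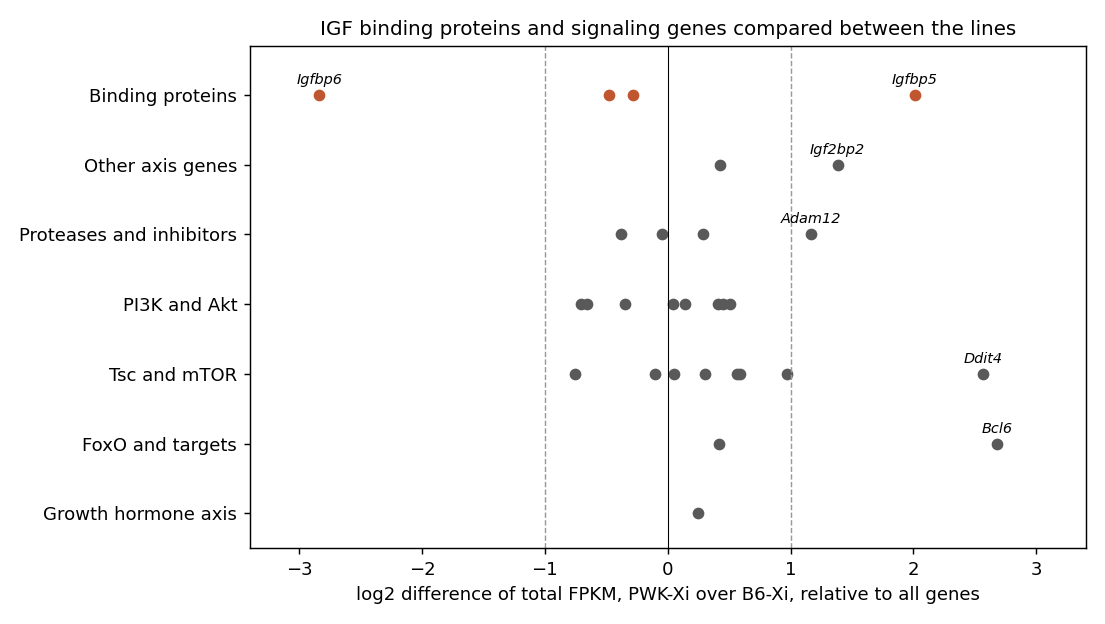
Difference of total FPKM between the lines (log2, PWK-Xi over B6-Xi, pseudocount 1, relative to the median of all compared genes) for the binding protein genes and each list; each point is 1 gene and dashed lines mark 2-fold. Igfbp6 lies at -2.84, and Igfbp5, Igf2bp2, Adam12, Ddit4 and Bcl6 lie between 1.16 and 2.68.

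The lean to B6 was not seen across these lists. Of their autosomal genes with at least 5 FPKM, 1 of 23 had a B6 share of at least 90% in PWK-Xi (Ddit4, 95.3%) and 0 of 16 in B6-Xi, against 2.4% and 2.72% of all autosomal genes, and the median shares were 51.1% and 40.6%. In B6-Xi 3 of the 16 had at most 10%: Akt1, Rps6 and Pik3r2, all at 0%, against 6.5% of all autosomal genes. In PWK-Xi the B6 shares of these genes were 55.9%, 34.4% and 59.3%. Whether their B6 values of 0 in B6-Xi are failed estimates was not tested. The one X-linked gene of the lists, Foxo4, came 100% from the B6 copy in PWK-Xi and 100% from the PWK copy in B6-Xi, which is the active X in each, at 0.838 and 0.798 FPKM.

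The genes with values most like those of Igfbp7 and of Igf1r were found by Euclidean distance over 4 values, log2(FPKM + 1) of each allele in each line. For Igfbp7 they were Psmb4 (distance 0.65), Grem1 (0.75) and Slc25a3 (0.79), with totals of 159.9, 178.1 and 214.4 FPKM in PWK-Xi and 205.9, 175.1 and 228.7 FPKM in B6-Xi. For Igf1r they were Eml4 (0.17), Nhlrc2 (0.19) and Whsc1l1 (0.20), all between 1.77 and 3.88 FPKM. This likeness rests on 2 libraries and is a description only.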

How the data were processed

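The authors deposited FPKM values of 22711 genes for 1 library per line, with a B6 and a PWK column per the file headers. Libraries were made from oligo-dT captured RNA by Smart-seq2, per the labels' protocols. HISAT2 (2.2.0), StringTie (2.1.1), Trim Galore (0.6.4) and the build mm9 appear in the submitters' processing notes. The sources used here do not say how a read was given to an allele. Groups came from the titles.

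Shares, totals and log2 differences were computed with pandas 2.3.3 and numpy 2.4.6 in Python 3.11.15, drawn with matplotlib 3.10.9, and checked on simulated data. Chromosomes and gene order came from GENCODE M21 by name (21631 genes) and from RefSeq by symbol (196) or synonym (788); 96 genes stayed unmatched. With 1 library per line no test was made. Every member was named, as were other axis genes and, per list, genes past 2-fold and the 2 most abundant, except for an item not reported here. Neighbour genes, Vim, Pappa, Igf2bp1, Pdpk1, Pik3r2 and Foxo4 were named after their values were seen, or as context. The motifs were chosen after the values were seen. The members and lists were chosen with earlier results of these data known.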

Additional observations from a re-analysis of the deposited data

How the results depend on the processing

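With 1 library per line no library could be left out. No paired analysis was possible because the lines share only replicate number 1. Igfbp5 and Igfbp6, the members past 2-fold, kept their direction under each alternative that gave a value. Under 2-fold, Igfbp3 turned from -0.28 to 0.05 with both libraries scaled to the same sum. Igf1r turned from 1.24 points above its neighbours in B6-Xi to a difference of -7.12 points with 5 genes on each side, and the share of Irs2 in PWK-Xi was 49.5% with the alleles scaled alike. The count of members at least 2-fold higher in PWK-Xi was 1; it was 0 with a pseudocount of 10 FPKM, where Igfbp5 (0.618 FPKM in B6-Xi) fell under 2-fold at 0.52, and 0 on the PWK allele alone, where Igfbp5 is listed at 0 in B6-Xi. It was 2 when genes listed at 0 in a line were kept in, which adds Igfbp2. On the PWK allele alone the member at least 2-fold lower was Igfbp3 (-1.05) in place of Igfbp6, whose PWK allele is listed at 0. The 3 higher genes of the pathway lists became 0 with a pseudocount of 10 FPKM, 5 with a minimum of 1 FPKM, 7 with no minimum and 5 with genes listed at 0 kept in. The 0 lower ones became 2 with a minimum of 1 FPKM, 1 with none and 4 on the PWK allele alone. Over all genes, 527 higher and 468 lower became 130 and 155 with a pseudocount of 10 FPKM, 971 and 243 with both libraries scaled to the same sum, and 116 and 82 at 4-fold. Igfbp7 made 98.3% of the binding-protein FPKM of the PWK allele in PWK-Xi, against 71.7% over both alleles. At a threshold of 80%, 2 members in place of 1 came from 1 strain in B6-Xi, and at 10 points 1 member in place of 0 differed in share. The number of reads behind each FPKM is unknown, and members under 5 FPKM rest on the lowest values.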
